A study of Mus musculus with 7 samples.

Results

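The 3024 regions described here are stretches of DNA listed as open chromatin in mouse pancreatic epithelium 1, 7 and 28 days after caerulein. None was listed as open in untreated epithelium, which does not show that they were closed there. ATAC-seq, in which the Tn5 transposase cuts and tags accessible DNA, was applied to purified epithelium of wild-type C57BL/6J mouse pancreas. The groups were untreated mice and mice harvested 1, 7 and 28 days after treatment with caerulein, a cholecystokinin analogue that overstimulates acinar cells and causes acute pancreatitis. Each group was 1 library with 1 peak list, and the sources used here give neither the ages of the mice nor whether animals were pooled. Members were chosen by merging the overlapping peaks of the 4 lists on chromosomes 1 to 19 and X, which gave 223972 merged regions, and keeping those with a peak at days 1, 7 and 28, none in the untreated list, and a day 28 fold enrichment of at least 5. The fold enrichment is the authors' own value for each peak, the ratio of the stacked fragments at the summit to the background of that library. In the recovery of fragment counts, 1 was taken as added to both terms of this ratio. The fold is used to describe, rank and filter peaks within a list. The presence calls and the day 28 folds therefore chose the members, and their values are given as a description without a test. With 1 library per group every statement compares libraries, and nothing here has a replicate check.

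The 4 lists held 130149 to 164684 regions, and their background pileups, which follow depth, ran from 2.52 at day 28 to 5.35 at day 1. In the untreated list, 23 of 25 digestive enzyme genes and 13 of 13 acinar transcription factor genes had at least 1 region. The same held for 30 of 30 ductal and metaplasia genes. Regions also lay at 10 of 20 leukocyte marker genes, 15 of 16 fibroblast and stellate marker genes and 16 of 16 endothelial marker genes. Endocrine markers had them at 18 of 20 genes and ubiquitous genes at 13 of 15. Counts of this kind are high for most lists and do not show which cells the library held.

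Open chromatin marks promoters and, further from genes, enhancers, where transcription factors displace nucleosomes. Inflammation opens many such sites through stress-induced factors such as AP-1, a dimer of FOS and JUN proteins, and in several epithelia a part of these sites is known to stay accessible after the tissue has healed, which is called epithelial memory. In the pancreas, acinar cells make digestive enzymes under PTF1A, NR5A2, GATA and FOXA factors, and during pancreatitis they lower that programme for a time and take on duct-like features, a change called acinar-to-ductal metaplasia. The title of the series names such a memory of resolved inflammation.

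Few members lay at promoters, and 6 of the promoters concerned are printed here because a member covers part of each and because they show the binding motifs that are counted further on. Each is the RefSeq window from 250 bases before to 50 bases after a listed start site, on GRCm38.p6, read 5′ to 3′ along the gene. Capitals mark every match, on either strand, to TGANTCA (the AP-1 motif), TGTGGT (RUNX), GGAATG (TEAD) or CAGCTG (an E-box read by PTF1A and other bHLH factors); none of the marked matches overlap. Glrb, for a glycine receptor subunit, held the strongest member at a protein-coding promoter and has none of the 4 motifs in its window. Zbtb20, for a zinc finger repressor, was among the 10 genes with the most members. The other 5 were picked after their values were seen: besides Glrb these are Runx2, for a RUNX transcription factor, Ankrd1, for a nuclear ankyrin-repeat protein known as a target of YAP and TEAD, Sbsn, for the epidermal secreted protein suprabasin, and Slc20a1, for a phosphate transporter.
Glrb, chr3:80913611-80913910, minus strand: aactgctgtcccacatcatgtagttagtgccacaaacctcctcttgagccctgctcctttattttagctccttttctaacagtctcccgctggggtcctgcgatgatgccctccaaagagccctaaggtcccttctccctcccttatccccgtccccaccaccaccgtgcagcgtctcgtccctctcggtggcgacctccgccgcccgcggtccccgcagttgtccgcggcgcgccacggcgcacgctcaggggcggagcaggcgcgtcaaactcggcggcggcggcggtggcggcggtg
Runx2, chr17:44814578-44814877, minus strand: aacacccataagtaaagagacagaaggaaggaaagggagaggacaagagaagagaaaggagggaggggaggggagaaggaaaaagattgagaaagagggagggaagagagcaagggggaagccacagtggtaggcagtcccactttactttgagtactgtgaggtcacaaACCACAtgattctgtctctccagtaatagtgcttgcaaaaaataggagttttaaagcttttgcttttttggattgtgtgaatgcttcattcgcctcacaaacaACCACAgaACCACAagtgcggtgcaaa
Ankrd1, chr19:36119795-36120094, minus strand: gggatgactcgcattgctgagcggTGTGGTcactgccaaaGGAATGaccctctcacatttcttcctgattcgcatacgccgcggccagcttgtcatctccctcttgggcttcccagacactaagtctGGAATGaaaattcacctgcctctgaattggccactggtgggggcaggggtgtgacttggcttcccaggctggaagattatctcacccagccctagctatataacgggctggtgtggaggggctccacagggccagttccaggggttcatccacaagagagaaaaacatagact
Sbsn, chr7:30751221-30751520, plus strand: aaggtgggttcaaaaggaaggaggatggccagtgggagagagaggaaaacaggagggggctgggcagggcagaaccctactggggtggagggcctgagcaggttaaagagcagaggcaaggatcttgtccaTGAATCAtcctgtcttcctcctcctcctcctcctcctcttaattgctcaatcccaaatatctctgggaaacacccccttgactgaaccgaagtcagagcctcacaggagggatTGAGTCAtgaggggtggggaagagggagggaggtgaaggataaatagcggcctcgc
Slc20a1, chr2:129206846-129207145, plus strand: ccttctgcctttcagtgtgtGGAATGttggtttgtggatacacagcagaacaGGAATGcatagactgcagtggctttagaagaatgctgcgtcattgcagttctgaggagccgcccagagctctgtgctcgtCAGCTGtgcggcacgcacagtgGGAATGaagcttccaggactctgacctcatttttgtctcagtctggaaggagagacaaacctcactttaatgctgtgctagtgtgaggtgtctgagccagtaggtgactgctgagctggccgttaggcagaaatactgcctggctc
Zbtb20, chr16:43247034-43247333, plus strand: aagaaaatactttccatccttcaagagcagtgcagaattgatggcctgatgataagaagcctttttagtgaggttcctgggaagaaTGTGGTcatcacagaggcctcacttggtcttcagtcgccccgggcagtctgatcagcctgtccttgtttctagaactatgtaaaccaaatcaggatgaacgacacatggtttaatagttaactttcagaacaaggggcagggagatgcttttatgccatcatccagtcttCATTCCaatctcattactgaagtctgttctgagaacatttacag

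The fold enrichments of the members over these promoters were as follows. Glrb had 6.30, 21.2 and 10.8 on days 1, 7 and 28. Runx2 had 29.5, 11.8 and 9.08 on days 1, 7 and 28, and 3 RUNX motifs in its own promoter window. Ankrd1 had 11.03, 9.40 and 7.38 on days 1, 7 and 28, with 2 TEAD motifs and 1 RUNX motif. The region at Sbsn, which holds 2 AP-1 motifs, stood at 27.9, 23.1 and 6.24 at days 1, 7 and 28. The region at Slc20a1, with 3 TEAD motifs and 1 E-box, stood at 13.4, 13.2 and 5.68, and that at Zbtb20, with 1 RUNX and 1 TEAD motif, at 10.6, 8.06 and 5.11. None of the 6 had a peak in the untreated list. The summit of the Runx2 member lay before the start site, outside the printed window and inside the overlapping gene Supt3, and the nearest-gene rule used further on counts this member at Supt3.

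The members stood between percentiles 35.2 and 76.9 of the day 28 list, with a median of 45.3. Their highest day 28 folds ran from 5.11 to 15.04 with a median of 5.96, in a list whose peaks reached 1241. In fragments, the lowest member had a day 28 pileup of 17 (exact Poisson 95% interval 9.90 to 27.2), the median member 20 and the highest 52; all such intervals cover counting error only. The threshold cut through a crowded range: 576 members sat at exactly 5.11, among them regions inside Aff3 and Npas2, and 734 further lasting gains sat 1 fragment lower at 4.83, among them regions inside Sntg1 and Ncoa2. Just inside, the day 1 and day 7 folds were 9.45 and 6.45 at Aff3, and 8.82 and 10.7 at Npas2. Just outside they were 22.8 and 9.13 at Sntg1, and 3.31 and 4.30 at Ncoa2, so the 2 sides overlap at the earlier times. Members made up 1.35% of all merged regions and 35.2% of the 8586 lasting gains, the other 5562 being the weaker lasting gains. All lasting gains together were 7.93% of the 108324 day 28 regions.

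Regions without an untreated peak became rarer the stronger the day 28 peak was. Of the 13276 day 28 regions with a fold of 5 to 6, 28.9% (28.1 to 29.6, an exact binomial 95% interval) were without an untreated peak and 13.4% (12.9 to 14.0) were members. At a fold of 8 to 10 these shares were 3.23% and 2.205%, and at 10 to 15 only 68 of 11333 regions lacked an untreated peak and 54 were members. Above 20, 0 of 22455 regions lacked an untreated peak. Over all 75440 day 28 regions with a fold of at least 5, the shares were 7.8% without an untreated peak and 4.01% lasting gains, and the second value is the background against which members are counted below. Enrichment differed between the libraries: the median fold minus 1 in the 59902 regions that all 4 lists held was 11.5 at day 28 and 7.40 in the untreated library. The weakest listed peak had a fold of 2.84 at day 28 and 2.47 in the untreated library, and the part of these differences in the gains was not tested.

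**Figure D1:**
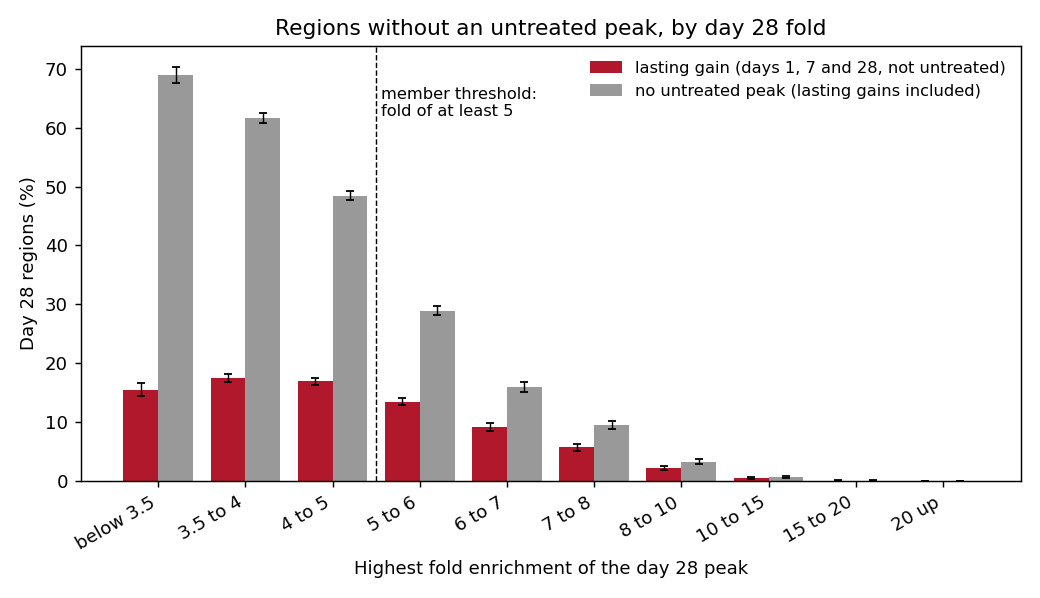
Share of day 28 regions (y axis, %) that were lasting gains (red) or had no untreated peak at all (grey), by the highest fold enrichment of the day 28 peak (x axis), with exact binomial 95% intervals as error bars. Both shares are small above a fold of 8, and 0 of 22455 regions above 20 lacked an untreated peak.

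At days 1 and 7 the same regions ranked higher within their own lists. The members' day 1 folds ran from 2.68 to 73.3 with a median of 8.82, their day 7 folds from 3.22 to 43.2 with a median of 7.79. The median member stood at percentile 61.5 of the day 1 list, 55.6 of the day 7 list and 45.3 of the day 28 list. A fold above the median of its list was held by 1994 members (65.9%) at day 1, 1833 (60.6%) at day 7 and 977 (32.3%) at day 28. In all 3 lists 570 members (18.8%) were above the median. Only 59 members (1.95%) were in the top 10% of the day 1 list, 1 in that of day 7 and 0 in that of day 28. Since the lists differ in length and depth, these ranks place the members within each list and measure no change between them.

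The regions that were strong at day 1 were more often still listed later. Of 82977 merged regions with a day 1 peak and no untreated peak, 10.3% were lasting gains, with a peak at each later time. With a day 1 fold under 4 the share of lasting gains was 3.93% (3.72 to 4.15) of 31627. At 10 to 20 it was 20.9% (20.1 to 21.7) of 9924, and at 40 or more 34.8% (30.4 to 39.3) of 466. Members, which also pass the fold threshold, were 3.64% of the 82977. In the same order of day 1 folds, the share of members was 1.18% (1.06 to 1.30), 8.16% (7.63 to 8.72) and 15.7% (12.5 to 19.3). Among the lasting gains alone, 30.03% were members where the day 1 fold was under 4 and 45.1% where it was 40 or more. A taller peak is also further from the detection floors of the later lists, and the part of that in these shares was not tested.

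**Figure D2:**
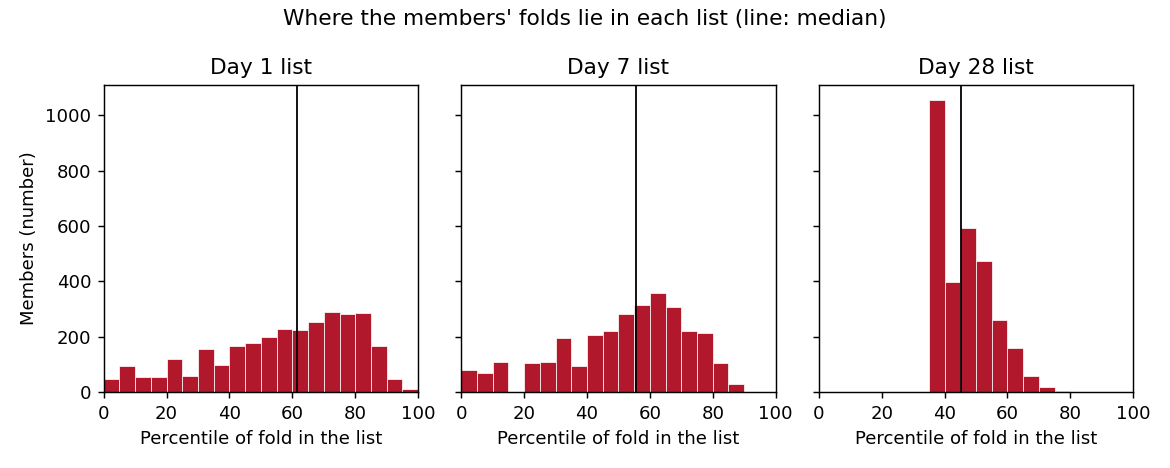
Number of members (y axis) by the percentile of their highest fold within the day 1, day 7 and day 28 lists (x axis), with the median as a black line. The medians stand at 61.5, 55.6 and 45.3, and the cut at the left of the day 28 panel is the threshold of 5.

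The 20 strongest members with a protein-coding gene span within 50 kb differed in their folds at days 1 and 7. None lay within 1 kb of a gene end, and 11 lay inside a gene span. Over all members these shares were 4.96% and 54.03%, so the position of the 20 was not particular to them. The first was inside Scrt2, for a zinc finger repressor of the Scratch family, at chr2:152092840-152093887, with folds of 6.15, 7.79 and 15.04 on days 1, 7 and 28. The second lay 26344 bp from Adm, the gene of the vasodilator peptide adrenomedullin, with 3.31, 4.57 and 14.8 in the same order of days. Both had their lowest percentile in the day 1 list. The region 27724 bp from Rc3h1, which encodes the RNA-binding protein roquin-1, had 22.2, 12.6 and 13.9 on days 1, 7 and 28 and was thus above the median of each list.

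Cysltr2, for a cysteinyl leukotriene receptor, had a member at 11283 bp with folds of 37.2, 26.9 and 11.9 on days 1, 7 and 28. A member inside Osbpl6, for an oxysterol-binding protein relative, had 38.0, 21.8 and 11.4, and a member inside F2r, the thrombin receptor gene, had 30.1, 14.5 and 11.07. These 3 were the ones of the 20 with a day 1 fold of 30 or more. Rufy1 (4.73, 5.64 and 12.2) and Sqstm1, the gene of the autophagy receptor p62 (4.25, 8.86 and 11.9), had the opposite pattern within their lists. The nearest untreated peak lay 269 bp from the Rufy1 region, 265 bp from the Sqstm1 region and 302 bp from the Adm region, and closer still at Pcgf5 (180 bp) and Pknox2 (41 bp). The rest lay at Itsn1, Tes, Kcnma1, Pdgfb, Pcgf5, Rcan3, Tnfrsf9, Thsd7a, Armh4, Pknox2, Ldlrad4 and Kcnip3, with day 28 folds of 11.07 to 11.9. The last place is tied: members at Tnrc6a and Bmper had the same day 28 fold as F2r, Ldlrad4 and Kcnip3. Of all 22 with these ties, 16 were above the median of the day 1 list, 17 above that of day 7, and 2 above neither. A further 8 members at or above the same fold had no gene within 50 kb.

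Members lay mostly away from gene ends. A protein-coding gene end was within 1 kb of the summit in 150 members, 4.96% (4.21 to 5.80), compared with 4.69% (4.15 to 5.28) of the weaker lasting gains, 23.5% (23.1 to 23.8) of the 53431 regions with a day 28 fold of at least 5 in all 4 lists, and 9.91% of all merged regions. Inside a protein-coding gene span lay 1634 members (54.03%), outside but within 50 kb 840 (27.8%), and beyond 50 kb 550 (18.2%; 16.8 to 19.6). The last share was 9.40% in the strong regions of all 4 lists, 17.8% in the weaker lasting gains and 13.8% over all merged regions. The members and the weaker lasting gains differed in these shares by less than their intervals. The median distance from summit to gene end was 25419 bp for members and 26218 bp for the weaker gains, against 9714 bp for the strong regions of all 4 lists. The annotation used gives gene spans without exons, so exons, introns and UTRs were not separated.

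**Figure D3:**
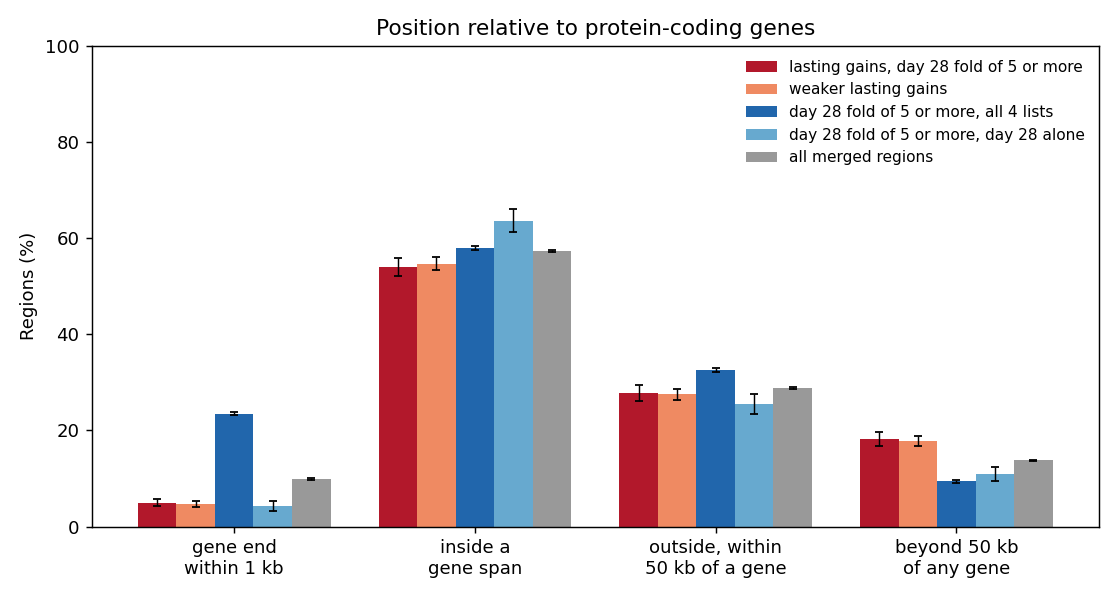
Share of regions (y axis, %) by position relative to protein-coding gene spans (x axis) for the members (dark red), the weaker lasting gains, the strong regions of all 4 lists, the strong regions of day 28 alone and all merged regions, with exact binomial 95% intervals. Gene ends are within 1 kb of 4.96% of members and of 23.5% of strong regions held by all lists; the first bar group overlaps with the other 3.

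The members lay further from untreated peaks than the regions that only the day 28 list held. The merged members had a median width of 536 bp (quartiles 390 and 754), the weaker lasting gains 483 bp, the strong regions of all 4 lists 1067 bp, and the 1668 strong regions of day 28 alone 247 bp. An untreated peak lay within 500 bp of 14.8% (13.5 to 16.1) of members, of 17.8% of weaker lasting gains and of 37.05% (34.7 to 39.4) of the strong regions of day 28 alone. The median distance from a member to the nearest untreated peak was 3434 bp, and 2269 members (75.03%) had such a peak within 10 kb. The widest member, 8387 bp, lay inside Rcan1, for a calcineurin inhibitor, with folds of 10.7, 19.6 and 5.96 on days 1, 7 and 28. Merging joins peaks of 3 lists, which widens members by construction. The day 28 peak of the members alone had a median width of 280 bp, beside the 247 bp of the strong regions of day 28 alone.

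The members were scattered over many genes. The 2474 members with a gene within 50 kb fell to 1950 genes, of which 1576 had 1 member, 374 had at least 2, 99 had at least 3 and 13 had at least 5. A second member lay within 25 kb of 544 members (17.99%). The same share was 26.3% for the 5562 weaker lasting gains, a larger set. Only 3 runs joined 4 or more members at that spacing, at Bmper, Sufu and Iqgap1. Sufu encodes a negative regulator of hedgehog signalling and Iqgap1 a scaffold protein of the cytoskeleton, and each of these runs held 4 members. Since long genes hold more regions of every kind, counts per gene are given with the number of day 28 regions of fold 5 or more at the same gene.

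The 10 genes with the most members were largely long genes. Zbtb20 had 7 of 42 such regions, and Foxp1, a forkhead factor gene, 7 of 72. Cdk14, for a cyclin-dependent kinase, had 6 of 15, Bmper 6 of 18, Rora, for a nuclear receptor, 6 of 45, and Rassf8, for a RAS association domain protein, 6 of 17. A further 7 genes had 5 members each, and the 4 of them with the largest summed day 28 fold are given here. These had 5 members out of 22 at the potassium channel gene Kcnma1, 25 at the fibrillin gene Fbn1, 52 at the zinc finger gene Tshz2 and 61 at the recombination gene Rad51b. These genes were ranked by their members, so the shares are a description only.

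Within single genes the members spanned a range of folds in each list. At Cdk14 the 6 members had day 28 folds of 6.53 to 10.2, day 1 folds of 5.51 to 20.3 and day 7 folds of 8.06 to 17.5. The 6 at Rora spanned a day 1 range of 4.41 to 49.8, and the one at the top of that range had 16.1 at day 7 and 7.66 at day 28. The 7 at Foxp1 ran from 3.62 to 33.9 at day 1 but only from 5.11 to 8.23 at day 28. At Rassf8 the member 20521 bp outside the gene had 37.5, 19.1 and 7.95 on days 1, 7 and 28, and the member 2819 bp beyond a gene end had 4.25, 4.30 and 5.68. At Kcnma1 a member 1532 bp from the gene was 175213 bp from the nearest untreated peak.

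The run with the most members lay before the start of Bmper, which encodes a secreted regulator of BMP signalling. In a window reaching 90 kb to either side of the gene, at chr9:23133076-23575215, the untreated list held 21 peaks, and those of days 1, 7 and 28 held 93, 49 and 33. The window holds 8 members, each with a single peak in every later list. The run itself, from 23149204 to 23202226, held 6 members over 53.02 kb, all before the gene start, of which 4 were within 50 kb of the gene. The other 2 members lay inside the gene, 16173 and 90035 bp from its start. The strongest at day 28, 43257 bp before the start, had folds of 3.94, 10.7 and 11.07 on days 1, 7 and 28. The strongest at day 1, 31916 bp before the start, had 25.5, 9.94 and 6.24. The tallest peak of the window lay outside the members in each later list, with 71.2, 41.9 and 21.9 on those days.

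**Figure D4:**
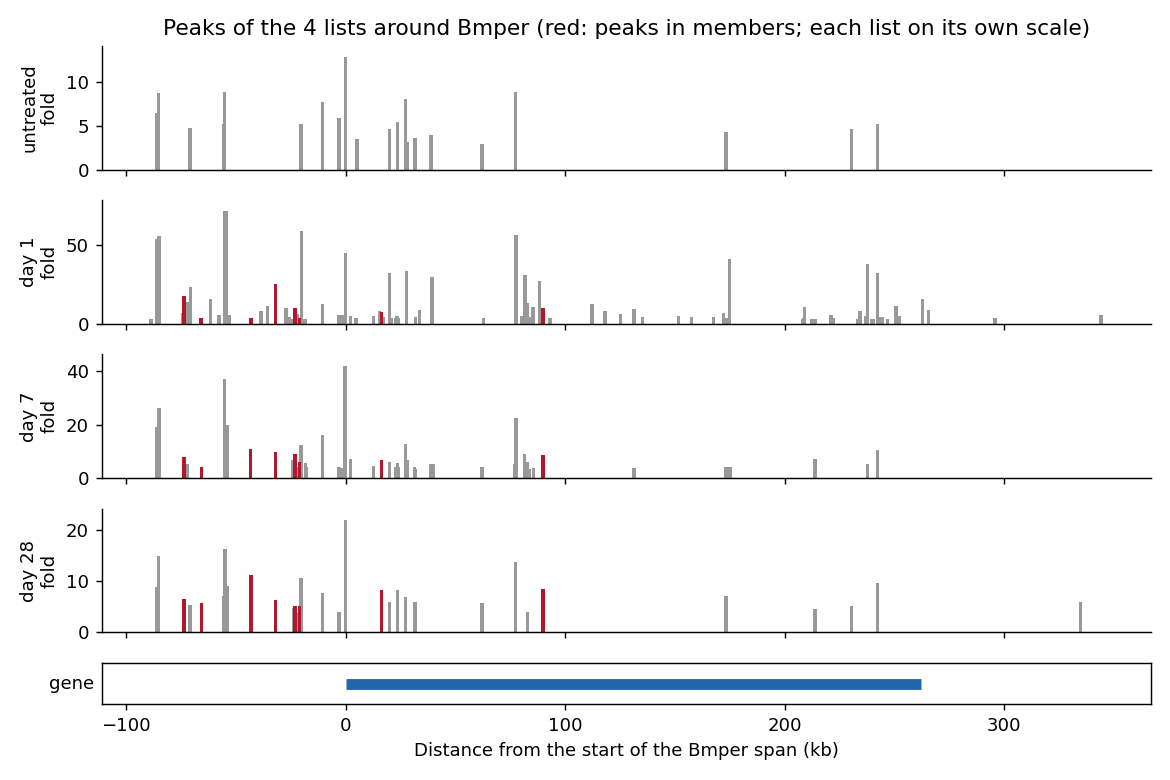
Peaks of the 4 lists around Bmper, drawn by distance from the start of the gene span in kb (x axis) and fold enrichment (y axis, each list on its own scale), with peaks in members in red and the gene as a blue bar. The 8 members have a peak at days 1, 7 and 28 and none in the untreated list, which held 21 peaks in the window against 93, 49 and 33.

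Genes of pancreatic function and injury carried members at about the background share. Over 19 gene lists with 381 genes, 73 members were linked to a listed gene. Of the day 28 regions with a fold of at least 5 at each list, the members' share was set beside the 4.01% of all such regions, and that value lay within the exact binomial interval of 18 of the 19 lists. The exception was the digestive enzymes, with 1 of 176 regions (0.568%; 0.0144 to 3.12). The genes of that list had 219 regions in untreated epithelium and 49, 91 and 268 on days 1, 7 and 28. Membership needs a peak on each of these days and no untreated peak, which bars the 219 regions. The part of either rule in the low share was not tested. The intervals were not adjusted for reading 19 lists, so a single miss may be counting error alone.

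Among the listed acinar transcription factor genes, 9 of 233 regions were members (3.86%; 1.78 to 7.21), 7 at Foxp1 and 1 each at Gata6 and Nr5a2. The share of this list rests mostly on Foxp1, a long gene with 72 of the 233 regions. Gata6 had 9 such regions and Nr5a2 had 29. The Gata6 region, 36423 bp from the gene, had 69.3, 34.9 and 6.24 on days 1, 7 and 28. The Nr5a2 region, 16897 bp from the gene of that nuclear receptor, was near 6 in each list, with 5.67, 6.18 and 5.68. The RUNX and KLF list, factors of injury and epithelial plasticity, had 10 of 135 (7.41%; 3.61 to 13.2), the highest share of any list. Runx1 held 3 members, with day 28 folds of 5.68 to 6.53 and day 1 folds of 5.36 to 35.6. Klf6 and Klf7 held 2 each, and Runx2, Klf5 and Klf9 1 each, the Runx2 member being a second one, inside the gene, with folds of 13.7, 10.2 and 8.52.

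Immediate-early and AP-1 genes had 5 of 134 (3.73%; 1.22 to 8.49). Jun held 2 of them, with folds of 5.04, 7.79 and 6.53 at days 1, 7 and 28 at the region 3696 bp from the gene, and Ier5, an immediate-early gene, 1 with 23.6, 9.40 and 9.08. The others lay at Batf3 and Maff, and neither Fos nor any of its paralogues held a member. EGFR and MAPK genes had 8 of 237 (3.38%; 1.47 to 6.54), at Egfr, the receptor gene, at Errfi1, Spred2, Dusp1, Dusp4 and Dusp6, which encode feedback inhibitors, and at the ETS factor genes Etv4 and Etv5. Hippo genes had 4 of 178 (2.25%; 0.616 to 5.65), at Yap1, Wwtr1, Tead1 and Vgll3.

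The shares of both cytokine lists had intervals that hold the 4.01%. The inflammatory and NF-kB list had 3 of 167 (1.80%; 0.372 to 5.16), 2 inside Nfkb1, the gene of an NF-kB subunit, and 1 at the chemokine gene Ccl2. The stronger Nfkb1 region at day 1 had 56.3, and then 17.2 at day 7 and 5.11 at day 28, and the Ccl2 region, 15996 bp from the gene, had 37.8, 17.2 and 5.96. They stood at percentiles 93.6 and 88.9 of the day 1 list and close to the threshold at day 28. The IL-6 family and STAT3 list had 5 of 172 (2.91%; 0.9505 to 6.65), 1 each at Jak1, Lifr, Osmr, Pim1 and Stat3. Jak1, the gene of a receptor-bound kinase, had 32.1, 18.3 and 7.66 on days 1, 7 and 28.

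Ductal and metaplasia genes had 6 of 162 (3.70%; 1.37 to 7.89), with 2 at Cd44, the hyaluronan receptor gene, and 1 each at Spp1, Krt7, Gkn3 and Tff3. The unfolded protein response and ER list had 8 of 214 (3.74%; 1.63 to 7.23), with 2 each at the ER stress factor genes Atf6 and Creb3l2 and 1 each at Ern1, Dnajc3, Derl1 and Edem3. Cell cycle genes had 2 of 77 (2.60%; 0.316 to 9.07), at the cyclin-dependent kinase inhibitor genes Cdkn1a and Cdkn1b, and ubiquitous genes had 2 of 53 (3.77%; 0.460 to 13.0).

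**Figure D5:**
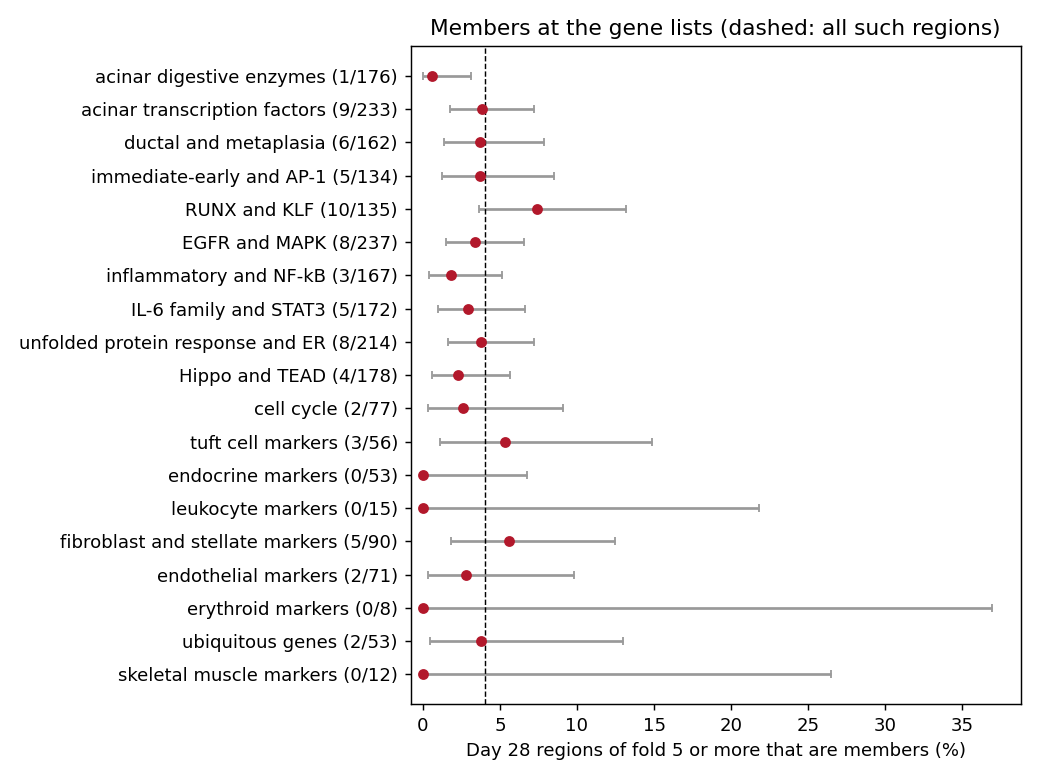
Share of day 28 regions with a fold of at least 5 that were members (x axis, %), for the regions linked to each gene list (y axis, with members over regions in brackets), with exact binomial 95% intervals. The dashed line at 4.01% is the share over all such regions, and it lies outside the interval of the digestive enzymes alone.

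Markers of other cell types were read in the same way, since a purified fraction can hold other cells. Fibroblast and stellate markers had 5 of 90 regions as members (5.56%; 1.83 to 12.5), 2 at Dcn and 1 each at Lum, Twist2 and Col3a1. At Dcn, the decorin gene, only 3 day 28 regions reached a fold of 5, and 2 of them were members. The 16 genes of this list had 121 regions in untreated epithelium, and 353, 221 and 136 on days 1, 7 and 28. Lum alone of them had 0 untreated regions, and Dcn had 4 untreated, and then 23, 9 and 5. Endothelial markers had 2 of 71 (2.82%; 0.343 to 9.81), both at Kdr, the VEGF receptor gene, and their regions numbered 170, 167, 158 and 107 in the order untreated, day 1, day 7 and day 28. Tuft cell markers had 3 of 56 (5.36%; 1.12 to 14.9), 2 at Dclk1 and 1 at Alox5ap. The leukocyte markers had 28 regions in untreated epithelium and 42, 27 and 21 later. In the same order Ptprc had 4, 10, 4 and 2, and Csf1r had 2, 11, 5 and 2. Itgam went the other way at day 1, with 7, 2, 1 and 4. Cd8a, Ms4a1, Adgre1, Ly6g and Cd52 had 0 in every list. Endocrine markers had 0 of 53, leukocyte markers 0 of 15, erythroid markers 0 of 8 and skeletal muscle markers 0 of 12, which allow shares of up to 6.72%, 21.8%, 36.9% and 26.5% by the exact interval. The part of other cell types in the members was not tested, and in these bulk libraries more cells of a type and more accessible DNA per cell cannot be told apart.

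Members were found on every chromosome analysed. Of the day 28 regions with a fold of at least 5, members made up 3.03% (2.60 to 3.51) on chromosome 11, the lowest share. The highest shares were 5.75% (4.49 to 7.24) on X and 5.45% (4.83 to 6.12) on chromosome 1. The autosomes together had 3.98% (3.84 to 4.12). Chromosome X also held a smaller part of the untreated list, 1.22%, than of the lists of day 1 (1.76%), day 7 (1.59%) and day 28 (1.59%), and the sources used here do not give the sexes of the mice. The 68 members on X are 2.25% of all members.

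Promoter sequence could be read for the few members that reach a listed start site. In the RefSeq table, 75 of the 2927 members on chromosomes other than 18 (2.56%) overlapped 88 promoter windows of 80 genes, 43 of them protein-coding. Each window was searched whole, so a counted match may lie outside the region that overlaps the window. The AP-1 motif TGANTCA was in 14 of the 88 windows (15.9%; 8.98 to 25.2), compared with 5.50% of the 15460 windows overlapped by strong regions of all 4 lists and 7.85% of all 32619 windows. The E-box CAGCTG was in 25 (28.4%; 19.3 to 39.0), against 15.9% and 16.4%. The RUNX motif TGTGGT was in 19 (21.6%; 13.5 to 31.6), against 11.9% and 16.6%, and the TEAD motif GGAATG in 16 (18.2%; 10.8 to 27.8), against 12.2% and 14.6%. The ETS motif CCGGAAG was in 4 (4.55%; 1.25 to 11.2), against 15.9% and 8.92%, and the KLF and SP motif GGGCGGG in 19 (21.6%; 13.5 to 31.6), against 46.3% and 25.7%. In the 154 windows overlapped by weaker lasting gains the AP-1 motif was in 8.44% (4.57 to 14.0), the E-box in 17.5% (11.9 to 24.5) and the RUNX motif in 16.2% (10.8 to 23.02). The same windows held the TEAD motif in 20.8%, the ETS motif in 3.25% and the KLF and SP motif in 14.3%. The intervals of members and weaker gains overlap for each of these 6 motifs. With protein-coding windows alone, the members' AP-1 share was 11.1% (3.71 to 24.1) and their E-box share 26.7% (14.6 to 41.9), intervals that hold the 7.04% and 15.7% of all protein-coding windows.

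The windows differed in base composition mainly between strong regions of all 4 lists and the rest. The windows overlapped by members had a median GC content of 51.7% and 6 CG steps, those of the weaker lasting gains 53.0% and 7, those of strong regions in all lists 61.3% and 20, and all windows 53.0% and 7. The STAT motif TTCCNGGAA was in 4 of the members' windows (4.55%; 1.25 to 11.2), against 1.26% for strong regions of all 4 lists and 1.16% of all windows. The GATA motif AGATAA was in 5 (5.68%), against 6.00% and 11.2%, and the BHLHA15 E-box CATATG in 3 (3.41%), against 1.46% and 3.82%. The forkhead motif TGTTTAC and the NR5A2 motif AAGGTCA were in 1 each (1.14%), against 3.67% and 4.71% of all windows. The NF-kB, HNF1 and CTCF motifs were in 0 of 88, which allows up to 4.11%, and are in 0.414%, 0.0613% and 0.0613% of all windows. Matches were counted on both strands, and different motifs may overlap. Some windows belong to alternative starts of the same gene and share sequence, so the 88 are not independent, and a match is a description of letters and not of binding. The overlapping windows of AW551984 hold the same STAT, AP-1 and E-box matches, which are therefore counted more than once. Members away from start sites, which are the great majority, were not searched.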

How the data were processed

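ATAC-seq peak lists of 4 epithelial libraries (untreated, days 1, 7 and 28) were used; DCLK1-positive cells (3 samples) were not analysed here. Among the tools in the submitters' processing notes are MACS2 2.1.0.20150731, a peak caller, and Bowtie2 2.2.6, an aligner, with cutadapt, SAMtools and deepTools, and the build is GRCm38 (mm10). The sources used here do not give options, read filters or any shift to the transposase cut site, all of which can affect peak edges and counts. The lists were deposited in the narrowPeak layout, 1 per sample. Their fold enrichment is the authors' ratio of pileup to background, read here with 1 added to each. Their −log10 p and −log10 q are the authors' values for the same peak, and their score is the authors' −log10 q times 10. Whole pileups were recovered from the deposited fold with 1 background per list (5.07, 5.35, 2.72 and 2.52 for untreated and days 1, 7 and 28), with 100% of values whole within 0.05; the lowest were 14, 14, 10 and 9. Read totals are not given.

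Peaks overlapping by at least 1 bp were merged in Python 3.11.15 with pandas 2.3.3; bedtools 2.31.1 gave the same 3024 members, and the steps were tested on simulated data. Each day 28 summit was assigned the closest protein-coding gene span within 50 kb (RefSeq, GRCm38.p6). Start sites and promoter sequences came from the RefSeq promoter table, which was read for chromosomes other than 18. Shares carry exact (Clopper-Pearson) 95% intervals that cover counting error only. Motif counts in windows around all summits, planned at first, were replaced by counts in promoter windows. Named items were the 20 strongest linked members, the 10 genes with the most members (ties by summed day 28 fold), up to 3 genes per list by number of members, the regions at the threshold and the widest member; other genes of a list were named after their values were seen. Members and lists were chosen with earlier results of these data known. No p-value was computed.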

Additional observations from a re-analysis of the deposited data

How the results depend on the processing

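The number of members stayed within 1.5 times of 3024 when presence needed peaks sharing at least 50% of the shorter peak (3359), when no untreated peak was allowed within 500 bp (2577), when peaks up to 100 bp apart were merged (2784), when a −log10 q of at least 5 was needed in all 3 later lists (2797) and under a fold floor of 2.95 common to all lists (3052). It moved to 5692 with a day 28 fold of at least 4 and to 628 with at least 7, by construction. The share near a gene end was 9.19% within 2 kb, and 4.61% with listed start sites, a setting chosen after seeing the data. A gene lay within 10 kb of 66.8% of members and within 100 kb of 88.7%. With links within 10 kb, immediate-early and AP-1 genes, EGFR and MAPK genes and fibroblast and stellate markers each had 3 members and endothelial markers 1. Within 100 kb, the IL-6 family and STAT3 list and the fibroblast and stellate markers had 8 each and endocrine markers 1. The median width was 280 bp for the day 28 peak alone. With protein-coding promoters only, also chosen after seeing the data, the forkhead and BHLHA15 motifs were in 0% of windows, the STAT motif in 8.89% (4.55% with all promoters), the NR5A2 motif in 2.22% (1.14%) and the AP-1 motif in 11.1% (15.9%). Motif windows around summits, in either planned length, were not run. No paired analysis was possible because each group has 1 library, and no replicate could be left out. The day 28 library had a background pileup of 2.52 against 5.07 in the untreated library, and the part of depth in the lists was not tested.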
